A study of Homo sapiens with 24 samples.

Results

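The genes described here are 10 genes of epidermal growth factor (EGF) signalling: the receptors EGFR, ERBB2 and ERBB3, the ligands AREG, EREG, HBEGF, TGFA, BTC and EPGN, and the receptor inhibitor ERRFI1. They were found by matching Ensembl identifiers to symbols in a table of 60668 genes, each symbol matched 1 row, and all 10 passed the filter on low counts that left 22158 genes. RNA was sequenced from 3D cultures on growth factor-reduced Matrigel of MCF-10A, an immortalised, non-tumour human mammary epithelial line, and of MCF-10A MYC-ER, which carries a MYC-ER fusion (MYC joined to oestrogen receptor sequence) that 4-hydroxytamoxifen (4-OHT) switches on. Cells of both lines received 1 µM 4-OHT for 0, 8, 24 or 48 h, begun from day 3 so that every culture was collected on day 5. The genotype is given as MYC.ER for one line and wild-type for the parental line, so the treated parental groups received the drug without the fusion. Each of the 8 groups has 3 libraries, 24 in all. The sources used here do not say which promoter drives the fusion, whether the line is 1 clone, whether the 0 h cultures received a carrier, or whether the replicates were cultured separately. The p-values therefore measure the spread between these libraries, which may be technical. That spread is estimated for each gene over all 8 groups together, not within the groups compared. These are bulk libraries, in which fewer cells of a type and less RNA per cell cannot be told apart.

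EGF-family ligands are made as membrane-anchored precursors, cut loose by ADAM proteases, and bind receptors on the same or neighbouring cells. Amphiregulin (AREG), epigen (EPGN) and transforming growth factor alpha (TGFA) bind EGFR, whereas betacellulin (BTC), epiregulin (EREG) and heparin-binding EGF (HBEGF) also bind ERBB4. ERBB2 binds no ligand of its own and ERBB3 has a weak kinase, so both signal as partners. ERRFI1 (also called MIG6) binds the EGFR kinase and blocks it. AREG is the main EGFR ligand in the growth of mammary ducts, and MCF-10A cells are usually grown with added EGF. The labels do not give the medium.

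4 of the 6 ligand genes lie within 486 kb of chromosome 4 (GRCh38). EPGN (74308473 to 74315307), EREG (74365143 to 74388751) and AREG (74445134 to 74455009) are read from the forward strand, in that order, and BTC (74744759 to 74794686) from the reverse strand. The 250 bases before the start of the 3 forward genes are shown, because these neighbours followed different courses in MYC-ER cells. They come from RefSeq promoters of GRCh38.p14, all on the forward strand, at chr4:74308220-74308469 for EPGN, chr4:74364895-74365144 for EREG and chr4:74444886-74445135 for AREG. Capitals mark a TGACGTCA cAMP response element (CRE).
EPGN: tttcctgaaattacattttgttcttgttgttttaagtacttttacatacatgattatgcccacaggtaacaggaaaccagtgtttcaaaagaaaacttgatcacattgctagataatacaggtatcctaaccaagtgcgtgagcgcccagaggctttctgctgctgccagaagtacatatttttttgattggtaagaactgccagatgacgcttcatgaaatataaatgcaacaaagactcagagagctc
EREG: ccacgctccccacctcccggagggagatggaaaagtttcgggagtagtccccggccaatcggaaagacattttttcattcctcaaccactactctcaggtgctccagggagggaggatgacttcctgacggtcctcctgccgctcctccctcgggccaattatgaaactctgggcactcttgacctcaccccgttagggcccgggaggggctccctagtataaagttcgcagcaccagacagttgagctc
AREG: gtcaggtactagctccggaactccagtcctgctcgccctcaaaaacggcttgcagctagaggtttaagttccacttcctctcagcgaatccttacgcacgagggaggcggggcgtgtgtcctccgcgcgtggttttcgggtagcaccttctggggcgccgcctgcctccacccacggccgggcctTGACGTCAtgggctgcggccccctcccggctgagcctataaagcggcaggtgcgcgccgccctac
The windows of all members with an entry, 250 bases before to 50 after a start, were searched on both strands for CACGTG (E-box), TGACTCA or TGAGTCA (AP-1) and TGACGTCA (CRE). AREG held 1 CRE, whose first base is 65 bases before the start. CRE matches occurred in 1.84% of 34943 RefSeq promoters. EGFR has 2 listed starts, and the downstream one held 2 AP-1 matches, 232 and 136 bases before it. AP-1 letters occurred in 4.96% of promoters. The only ERBB2 window, chr17:39687844-39688143, lies at the upstream end of the annotated gene, and any start further downstream was not searched. No E-box was found in the windows of the 9 members with an entry (all but ERBB3), against 7.23% of promoters. These matches describe letters in a window and say nothing about binding. HBEGF lies on chromosome 5, TGFA on chromosome 2, EGFR on chromosome 7, ERBB2 on chromosome 17, ERBB3 on chromosome 12 and ERRFI1 on chromosome 1.

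Libraries held 136860029 to 182438505 counts, and levels are given as CPM, the counts of a gene relative to the library's total, scaled by TMM to correct for library make-up. A count of 0 allows up to 0.0219 CPM in the smallest library, for counting error only. BTC, the lowest member, had 51 to 275 counts per library and EGFR, the highest, 60160 to 133912, so counting error weighs most on BTC. The parental 0 h libraries stand apart. Spearman's rho across genes between a library's deviation from the mean and GC content was 0.597, 0.173 and 0.559 in parental 0 h replicates 1, 2 and 3, against -0.396 to 0.085 in the other 21 libraries. Replicate 2 also had the highest EGFR, EREG, TGFA, BTC, EPGN and ERRFI1 of that group. Some member results that use these libraries are therefore also given without single libraries, or with each library's GC trend removed. Single pathway genes are given from the main fit only. Each gene's spread is estimated over all 8 groups, so the uneven libraries also enter tests that do not compare them. Some results are therefore also given from a fit of only the groups compared. MYC-ER 0 h libraries, the baseline of the MYC-ER changes, held 9.24 to 9.71% mitochondrial counts against 5.61 to 6.78% at the later MYC-ER times, and the part of this difference in the changes was not tested. Basal mammary markers summed to 14285 to 14781 CPM in MYC-ER cells at 0 h and 23009 to 28792 CPM in parental cells, with the lowest group mean, 9921 CPM, in MYC-ER cells at 48 h. Pan-epithelial markers summed to 348 to 368 CPM in MYC-ER cells at 0 h and 806 to 859 CPM at 8 h, where the ligand pulse lies, and the part of either shift in the members' changes was not tested. CDKN2A and CDKN2B, which MCF-10A lacks, had 0 counts throughout. Luminal hormone-responsive markers had group means of at most 19.7 CPM in sum.

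Before 4-OHT, MYC-ER cells differed from parental cells in 9 of the 10 genes. AREG, EREG, HBEGF, TGFA and BTC were lower, as was ERRFI1, while EPGN, EGFR and ERBB3 were higher. Over all genes tested 64.3% were called by edgeR's quasi-likelihood test at an adjusted p under 0.05, 31.6% higher and 32.7% lower. This background, like those below, includes genes with fewer counts than any member. Where at least 10 counts were required in every library, 12262 of 16056 genes were called. The median log2 difference was -0.52 over the members and 0.00 over all genes. Each line's 0 h group also serves as the baseline for that line's changes from 0 h below, so these comparisons share libraries.

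AREG read 5.90, 7.35 and 6.79 CPM in the 3 MYC-ER libraries at 0 h and 52.2, 58.2 and 67.4 CPM in the parental ones. The groups lay far apart, with a log2 difference of -3.15 (SE 0.09, adjusted p 1.55e-17), 8.87-fold lower. HBEGF read 2.03, 2.31 and 2.59 CPM against 28.3, 23.9 and 29.7 CPM. It was 11.8-fold lower, the widest gap among the members at 0 h (log2 difference -3.56, SE 0.11, adjusted p 3.53e-17). EREG read 3.09, 3.24 and 3.45 CPM against 18.9, 34.6 and 18.4 CPM, with parental replicate 2 well above its 2 partners. Its log2 difference was -2.88 (SE 0.17, adjusted p 2.69e-12), and -2.52 without that replicate. TGFA read 12.8, 13.5 and 12.9 CPM against 26.7, 29.4 and 25.7 CPM, a log2 difference of -1.06 (adjusted p 1.3e-12). EPGN went the other way, at 161, 172 and 155 CPM against 74.2, 95.3 and 70.7 CPM. Every MYC-ER value exceeded every parental one, and the log2 difference was 1.02 (SE 0.09, adjusted p 1.79e-09). ERRFI1 was lower by a log2 difference of -0.27 (adjusted p 0.00871), a call lost without parental replicate 2, where it was -0.14 (adjusted p 0.103), and when the groups were fitted alone (adjusted p 0.0679). BTC differed by -0.77 (adjusted p 0.00355), also lost in that fit (adjusted p 0.0622). EGFR and ERBB3 were higher by 0.46 and 0.87 (adjusted p 0.000475 and 3.76e-08). AREG, HBEGF, EREG, TGFA, EPGN, EGFR and ERBB3 kept sign and call in all 15 alternatives. Over these EPGN ranged from 0.81 to 1.17 and EGFR from 0.34 to 0.66, and the adjusted p of AREG reached 8.03e-07.

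**Figure D1:**
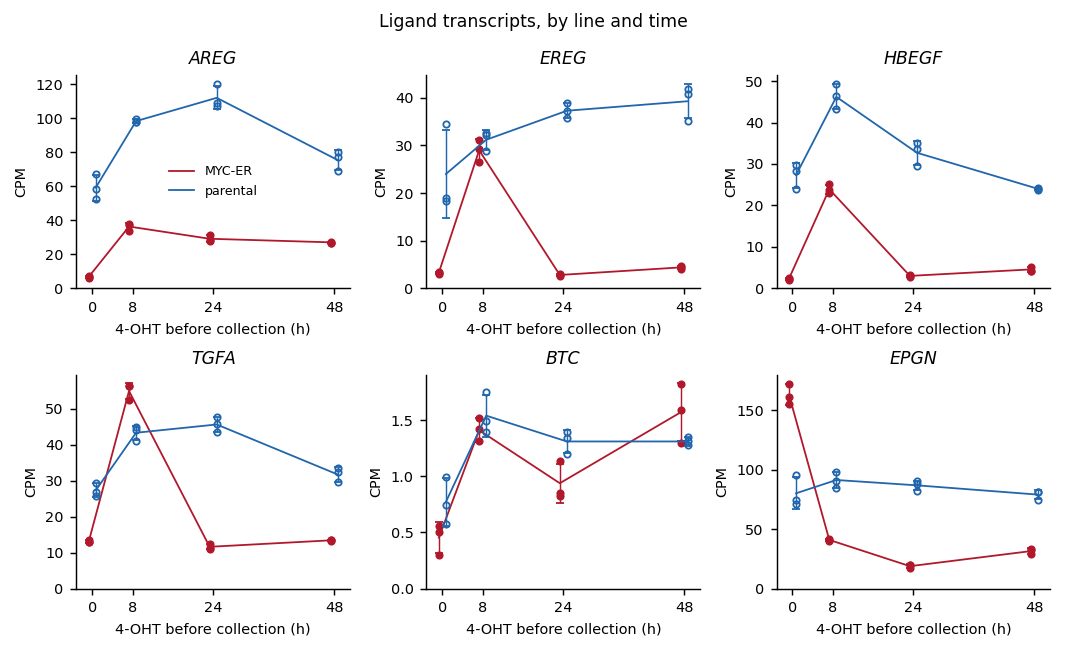
CPM of the 6 ligand genes in each library against hours of 4-OHT before collection. Filled points are MYC-ER and open points parental libraries, lines join group means and bars are SD (n = 3). EREG, HBEGF and TGFA peak at 8 h in MYC-ER cells and are back at 2.79, 2.98 and 11.6 CPM at 24 h, AREG stays up at 27 to 36.3 CPM, and EPGN falls from 163 to 18.8 CPM at 24 h.

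After 8 h of 4-OHT all 10 genes passed the test in MYC-ER cells, EGFR only at the threshold and in 4 of 15 alternative fits. 5 ligands and ERRFI1 rose, and EPGN, ERBB3, ERBB2 and EGFR fell. The background in this comparison was 67.6% of all genes called (32.2% higher, 35.4% lower), so calls were common. The median log2 change was 1.30 over the members and -0.10 over all genes. After 24 h 7 members were called, 3 higher and 4 lower, against 61.6% of all genes (30.4% higher, 31.2% lower), a share near the background. After 48 h 7 were called, 5 higher and 2 lower, against 44.1% (23.4% higher, 20.7% lower). The median log2 change of the members was -0.19 at 24 h and 0.30 at 48 h. Where at least 10 counts were required in every library, 12692, 11891 and 8736 of 16056 genes were called at 8, 24 and 48 h.

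EREG, HBEGF and TGFA made a pulse. EREG rose from about 3 CPM to 29.3, 31.2 and 26.5 CPM at 8 h, 8.89-fold (log2 change 3.15, SE 0.17, adjusted p 4.74e-13). By 24 h it was back at 3.06, 2.51 and 2.79 CPM, 10.4-fold below 8 h (log2 change -3.38, SE 0.18, adjusted p 4.22e-13). The 24 h and 0 h values did not overlap, but their difference of -0.23 did not pass the test (adjusted p 0.266). It did once GC trends were taken out (-0.30, adjusted p 0.0238). At 48 h it read 4.00, 4.61 and 4.52 CPM, and the call against 0 h (0.42, adjusted p 0.0451) was lost without any 1 of MYC-ER 0 h replicates 1, 2 and 3 or 48 h replicates 2 and 3 (0.38 to 0.46, adjusted p 0.0641 to 0.125).

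HBEGF, whose membrane form is also the receptor of diphtheria toxin, rose 10.4-fold to 23.8, 22.9 and 25.1 CPM at 8 h (log2 change 3.37, SE 0.11, adjusted p 6.95e-17). It read 2.97, 2.68 and 3.29 CPM at 24 h and 4.26, 4.22 and 5.17 CPM at 48 h. Unlike EREG it stayed above its 0 h values at both times, with log2 changes of 0.37 (adjusted p 0.00526) and 0.98 (adjusted p 1.2e-07). TGFA rose to 56.2, 52.4 and 56.2 CPM at 8 h, 4.21-fold (log2 change 2.08, SE 0.06, adjusted p 1.76e-17). It read 12.4, 11.1 and 11.2 CPM at 24 h and 13.5, 13.4 and 13.3 CPM at 48 h. The 8 h peak was the highest TGFA level of the 8 groups, 1.27-fold above parental cells at 8 h (adjusted p 5.48e-05). The call of the small TGFA fall below 0 h at 24 h (-0.17, adjusted p 0.0186) was lost in 6 of 15 alternatives. It was lost without MYC-ER 0 h replicate 2 or 24 h replicates 2 or 3 (-0.15, -0.14 and -0.15). It was also lost with DESeq2, with only the groups compared fitted, and with libraries scaled by totals alone (-0.06, adjusted p 0.436).

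AREG rose with them and stayed up. It read 38.0, 37.1 and 33.8 CPM at 8 h, 31.4, 28.3 and 27.5 CPM at 24 h and 26.8, 26.7 and 27.4 CPM at 48 h. All 9 treated libraries lay above all 3 at 0 h, with log2 changes of 2.44 (SE 0.09, adjusted p 6.43e-16), 2.12 (adjusted p 7.14e-15) and 2.01 (adjusted p 5.9e-14). None reached the parental range, in which the lowest AREG value was 52.2 CPM. Between 8 and 24 h AREG fell by 0.32 on the log2 scale (adjusted p 0.00299), and by 0.12 (adjusted p 0.2) when libraries were scaled by their totals alone. BTC, at 0.453 ± 0.137 CPM (SD, n = 3) at 0 h, read 1.41 ± 0.105 at 8 h, 0.938 ± 0.172 at 24 h and 1.57 ± 0.257 at 48 h. Its log2 changes were 1.64, 1.05 and 1.79, with adjusted p of 6.8e-07, 0.000212 and 5.39e-07.

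EPGN was the ligand that fell. It read 41.2, 41.4 and 40.1 CPM at 8 h, 19.5, 16.9 and 20.1 CPM at 24 h and 32.1, 29 and 33.4 CPM at 48 h. The 4 time points did not overlap, and the log2 changes from 0 h were -1.99 (SE 0.09, adjusted p 2.78e-14), -3.11 (SE 0.10, adjusted p 3.57e-17) and -2.37 (SE 0.09, adjusted p 7.82e-15). It thus moved from above the parental range of 70.7 to 98.4 CPM to below it. The summed level of 4 fibroblast genes (COL1A1, COL3A1, PDGFRB and DCN, of which 3 were tested) was also highest in MYC-ER cells at 0 h, at 369 to 377 CPM. After 8, 24 and 48 h it spanned 102 to 109, 79.7 to 91.6 and 121 to 130 CPM. In the 12 parental libraries it was 77.3 to 133 CPM. COL3A1 was at or near 0 in every group, and COL1A1 and DCN carried the sum. Their part in the EPGN result was not tested.

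The genes beside the chromosome 4 ligands, taken by position within 300 kb, differed among themselves in their changes. CXCL2, a neutrophil chemokine gene, changed by -2.08 at 8 h and -3.92 at 24 h on the log2 scale (adjusted p 7.48e-12 and 8.37e-16) and was above its 0 h level at 48 h (0.62, adjusted p 0.000436). CXCL3 read 0.25 (adjusted p 0.3) at 8 h and -2.69 (adjusted p 8.55e-10) at 24 h. MTHFD2L, directly beside EPGN, did not pass the test at 8, 24 or 48 h (0.14, -0.17 and -0.08, adjusted p 0.193, 0.137 and 0.53). PARM1, beyond BTC, was higher at 8 and 24 h (1.31 and 1.55, adjusted p 0.00344 and 0.00084), as BTC was. At 48 h PARM1 did not pass the test (0.23, adjusted p 0.667), and it had no group mean above 0.443 CPM.

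Levels of different genes can be set side by side only per length, here CPM per kb of the longest annotated transcript. On that scale the 6 ligands summed to 146 ± 7.78 in MYC-ER cells at 0 h, and EPGN held 93% of the sum. At 8 h the sum was 93.0 ± 2.26 although 5 ligands had risen, with 36.8% EPGN, 31.4% AREG, 13.7% TGFA, 10.8% HBEGF and 6.75% EREG. At 24 h it was 44.0 ± 2.55, with AREG leading at 53.2% and EPGN at 35.7%. At 48 h it was 54.6 ± 2.24, and EPGN led again at 48.2%. In parental cells the sum ran from 138 ± 12.5 at 0 h to 196 ± 7.68 at 24 h, and AREG and EPGN were the leading pair at each time. The order of the 2 changed there too, as EPGN led by 48.4% over 34.7% at 0 h and AREG by 46.1% over 37.1% at 24 h.

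**Figure D2:**
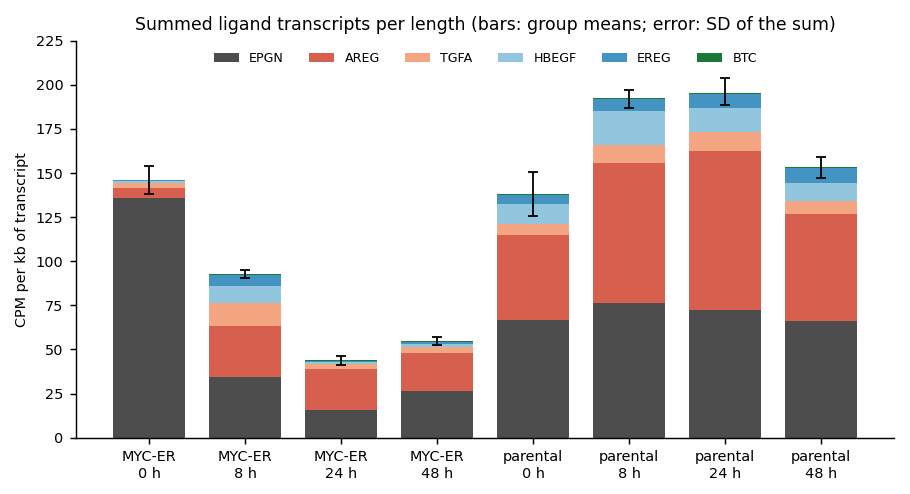
Ligand levels per length in the 8 groups, as stacked group means in CPM per kb of transcript. The error bar is the SD of the summed level (n = 3). EPGN fills 93% of the MYC-ER 0 h bar, and the MYC-ER bars after 4-OHT are shorter than any parental bar.

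Among the receptors, EGFR led on the per-length scale in all 8 groups, with 75.6 to 88.0% of the summed level of EGFR, ERBB2 and ERBB3. ERBB3 held 1.21 to 3.70%. ERBB3, the partner that recruits PI3 kinase, moved most. It read 16.3, 17.8 and 17.5 CPM in MYC-ER cells at 0 h, 3.94, 4.68 and 4.92 CPM at 8 h, 7.02, 6.81 and 7.36 CPM at 24 h and 13.3, 12.7 and 12.8 CPM at 48 h. The 4 time points did not overlap, and ERBB3 climbed back towards its 0 h level after the low at 8 h. The log2 changes from 0 h were -1.93 (SE 0.10, adjusted p 9.49e-14), -1.28 (SE 0.09, adjusted p 8.35e-11) and -0.41 (SE 0.09, adjusted p 0.00101).

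ERBB2, the ligandless partner, read 59.0, 65.6 and 62.3 CPM at 0 h, 42.1, 38.9 and 42.8 CPM at 8 h, 37.8, 37.7 and 36.1 CPM at 24 h and 66.6, 65.4 and 66.3 CPM at 48 h. It was low at 8 and 24 h, with log2 changes of -0.59 (adjusted p 2.27e-06) and -0.74 (adjusted p 1.08e-07), and at 48 h overlapped 0 h (0.09, adjusted p 0.447). EGFR read 614, 648 and 593 CPM at 0 h, 502, 524 and 552 CPM at 8 h, 683, 611 and 606 CPM at 24 h and 710, 699 and 697 CPM at 48 h. The 8 h libraries lay below those at 0 h, but the change of -0.23 (SE 0.10, adjusted p 0.0496) was at the threshold. It was lost without any 1 of the 6 libraries compared (-0.27 to -0.20, adjusted p 0.052 to 0.146) and without GC trends (-0.21, adjusted p 0.0736), and in 11 of 15 alternatives in all, DESeq2 among them (-0.20, adjusted p 0.0828). The call was kept with only the groups compared fitted, totals alone, upper-quartile scaling and a minimum of 10 counts. At 24 and 48 h EGFR did not pass the test (0.03 and 0.18, adjusted p 0.789 and 0.158), although the 48 h values lay above those at 0 h. When only the groups compared were fitted, EGFR was higher at 48 h (adjusted p 0.000611), and ERBB2 passed as well. Scaled by library totals alone EGFR, ERBB2 and TGFA passed at 48 h (0.35, 0.25 and 0.20, adjusted p 0.0147, 0.00973 and 0.00974). That scaling moved the median of all genes from -0.02 to 0.09 at 24 h and from 0.03 to 0.19 at 48 h, and upper-quartile scaling moved it from -0.10 to -0.24 at 8 h.

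**Figure D3:**
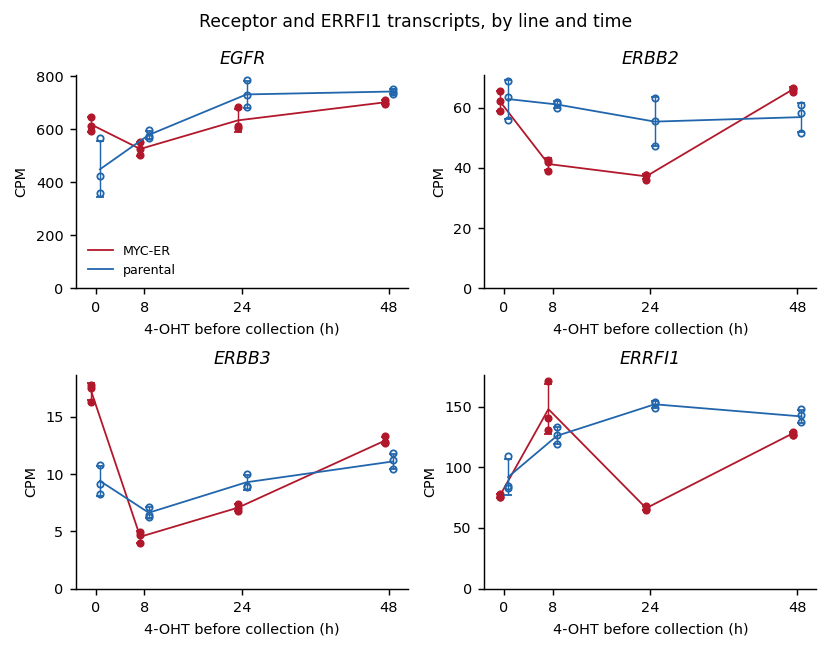
CPM of the 3 receptors and ERRFI1 in each library against hours of 4-OHT. Filled points are MYC-ER and open points parental libraries, lines join group means and bars are SD (n = 3). In MYC-ER cells ERBB3 drops from 17.2 to 4.52 CPM at 8 h, ERBB2 is lowest at 24 h (37.2 CPM) and ERRFI1 rises, falls and rises again.

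ERRFI1, the inhibitor, had 2 rises. MYC-ER libraries read 77.8, 75.2 and 75.2 CPM at 0 h, 141, 131 and 171 CPM at 8 h, 67.9, 65.0 and 65.8 CPM at 24 h and 127, 129 and 127 CPM at 48 h. The 8 and 48 h values lay above those at 0 and 24 h without overlap. Log2 changes from 0 h were 0.96 (SE 0.09, adjusted p 2.27e-09), -0.20 (SE 0.09, adjusted p 0.0512) and 0.75 (SE 0.09, adjusted p 3.28e-07). The 24 h change passed the test in 4 of 15 alternatives, at -0.24 (adjusted p 0.00929) without GC trends, -0.23 (adjusted p 0.0158) with upper-quartile scaling, -0.20 (adjusted p 0.0431) with a minimum of 10 counts and -0.16 (adjusted p 0.00124) with the 2 groups fitted alone.

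Steps between successive times show the same courses. From 8 to 24 h 9 of the 10 genes changed in MYC-ER cells, against 55.5% of all genes. Only EGFR and ERBB3 were higher, by 0.27 (adjusted p 0.031) and 0.64 (adjusted p 5.17e-06), and ERBB2 was the gene not called. The EGFR step was lost without MYC-ER 8 h replicates 1 or 2 or 24 h replicate 1 (0.23, 0.26 and 0.21). It was also lost without GC trends and with no filter on low counts, in 5 of 15 alternatives in all. The BTC step (-0.59, adjusted p 0.02) was lost without 8 h replicate 2 or 24 h replicates 1 or 3 (-0.54, -0.51 and -0.53). It was also lost with libraries scaled by totals alone (-0.39) or by upper quartile. From 24 to 48 h 8 members rose and none fell, against 53.7% of all genes called in either direction, and EGFR and AREG did not pass the test (adjusted p 0.235 and 0.303). With the 2 groups fitted alone both did, EGFR higher (0.11, adjusted p 0.0337) and AREG lower (-0.15, adjusted p 0.0176). ERRFI1, ERBB3 and ERBB2 had the largest steps of the 8, at 0.95, 0.87 and 0.83.

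In parental cells, which lack the fusion, members also changed after 4-OHT. At 8 h 7 were called, 6 higher and ERBB3 lower, against 31.0% of all genes (15.0% higher, 16% lower). At 24 h 7 were called, all higher, against 42.9% (21.2% higher, 21.7% lower), and at 48 h 7, all higher, against 40.5% (20.4% higher, 20.1% lower). These 3 comparisons rest on the uneven 0 h libraries. Where at least 10 counts were required in every library, they called 7186, 9503 and 9123 of 16056 genes. When only the 2 groups compared were fitted, 4 members were called at 8 h and 3 at 48 h, and over all genes the calls dropped to 1452 of 19596 and 3274 of 19680. EGFR, ERBB3 and ERRFI1 lost their calls at 8 h, HBEGF and EREG at 24 h, and ERBB3, AREG, EREG and TGFA at 48 h.

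AREG read 97.9, 97.5 and 99.6 CPM at 8 h, 107, 120 and 109 CPM at 24 h and 68.8, 77.0 and 80.4 CPM at 48 h in parental cells. Its log2 changes from 0 h were 0.73 (adjusted p 3.09e-06), 0.92 (adjusted p 1.51e-07) and 0.35 (adjusted p 0.00217), and no treated library fell within the 0 h range. TGFA read 44.1, 41.1 and 44.8 CPM at 8 h, 45.8, 43.5 and 47.6 CPM at 24 h and 29.5, 33.4 and 32.3 CPM at 48 h. It changed by 0.67 (adjusted p 1.66e-07), 0.74 (adjusted p 2.64e-08) and 0.22 (adjusted p 0.0057). HBEGF rose at 8 h, to 46.3, 43.2 and 49.2 CPM (0.76, adjusted p 1.05e-05). It then read 33.6, 35.0 and 29.4 CPM at 24 h and 23.9, 23.8 and 24.2 CPM at 48 h. The 24 h call (0.26, adjusted p 0.0349) was lost without parental 0 h replicate 2 or 24 h replicates 1 or 2 (0.17, 0.24 and 0.21), and at 48 h HBEGF read -0.19 (adjusted p 0.141), or -0.27 (adjusted p 0.0254) without 0 h replicate 2.

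EREG in parental cells depended on the 0 h libraries. It read 32.1, 32.7 and 28.8 CPM at 8 h, 38.9, 37.2 and 35.8 CPM at 24 h and 40.9, 35.2 and 41.8 CPM at 48 h. The change at 8 h was 0.38 (adjusted p 0.0727), and 0.74 (adjusted p 1.23e-06) without 0 h replicate 2. At 24 and 48 h it was 0.64 (adjusted p 0.00229) and 0.71 (adjusted p 0.000999). Without GC trends these values were 0.30 (adjusted p 0.0244) and 0.35 (adjusted p 0.00893), and without 0 h replicate 2 they were 1.00 (adjusted p 1.19e-08) and 1.07 (adjusted p 5.29e-09). EPGN read 98.4, 90.7 and 84.7 CPM at 8 h, 90.1, 87.9 and 82.3 CPM at 24 h and 81.3, 74.5 and 81.3 CPM at 48 h. All 3 groups overlapped 0 h and none of the changes passed the test (0.19, 0.12 and -0.02, adjusted p 0.119, 0.329 and 0.904). Without 0 h replicate 2 EPGN was higher at 8 and 24 h (0.33 and 0.26, adjusted p 0.000977 and 0.00604), while removal of GC trends put it lower at 24 and 48 h (-0.18 and -0.30, adjusted p 0.0273 and 0.000757), so its direction is not settled. BTC, at 0.771 CPM at 0 h, read 1.54, 1.31 and 1.31 CPM (1.00, 0.76 and 0.76, adjusted p 0.00117, 0.00525 and 0.00552), and its 24 h call was lost without GC trends (0.50, adjusted p 0.0529).

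EGFR in parental cells read 425, 566 and 358 CPM at 0 h, 574, 596 and 568 CPM at 8 h, 728, 683 and 785 CPM at 24 h and 734, 742 and 753 CPM at 48 h. All 9 treated values lay above all 3 at 0 h, though the spread at 0 h was wide. The changes were 0.37 (adjusted p 0.00974), 0.70 (adjusted p 1.94e-05) and 0.73 (adjusted p 2.29e-05). The first was lost without parental 0 h replicate 1 or 3 (0.33 and 0.24) and was 0.56 without replicate 2. ERRFI1 read 84.6, 109 and 82.6 CPM at 0 h, 127, 119 and 133 CPM at 8 h, 153, 149 and 154 CPM at 24 h and 137, 143 and 148 CPM at 48 h. It rose at each time without overlap (0.46, 0.73 and 0.63, adjusted p 0.000509, 2.64e-06 and 1.76e-05). ERBB3 fell from 9.40 ± 1.29 CPM (SD, n = 3) to 6.62 ± 0.464 at 8 h (-0.50, adjusted p 0.000415). Its small rise at 48 h (0.25, adjusted p 0.0391) was lost without parental 0 h replicates 2 or 3 or 48 h replicates 2 or 3 (0.23, 0.19, 0.24 and 0.20). ERBB2 did not pass the test at 8, 24 or 48 h (-0.04, -0.18 and -0.14). Without 0 h replicate 2 it was lower at 24 and 48 h (-0.26 and -0.22, adjusted p 0.0142 and 0.037), and at 24 h also without 24 h replicate 3 (-0.29, adjusted p 0.00835), whereas removal of GC trends gave 0.05 and 0.08.

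**Figure D4:**
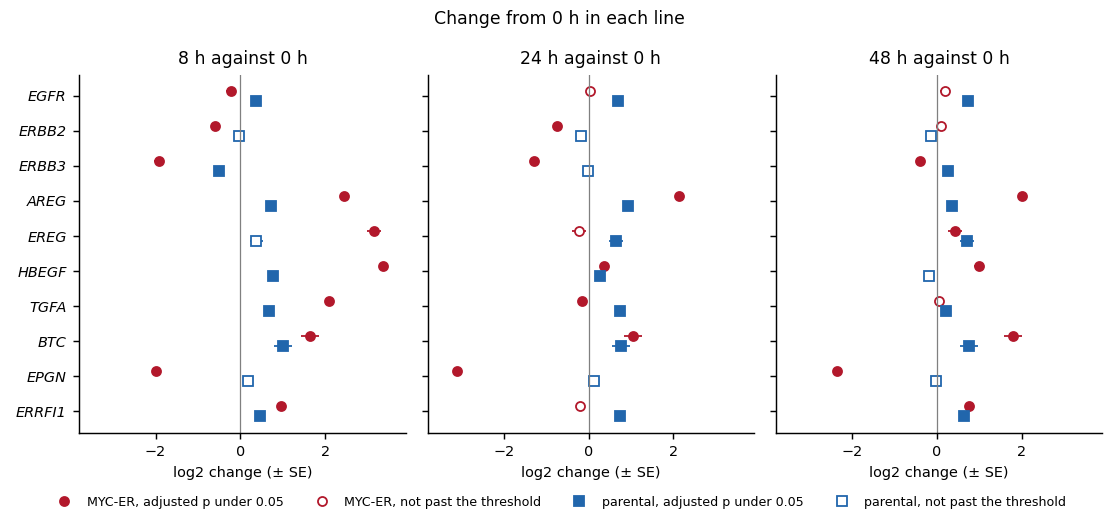
Log2 change from 0 h of each member after 8, 24 and 48 h of 4-OHT, with SE. Circles are MYC-ER and squares parental cells, filled where the adjusted p is under 0.05. At 8 h AREG, EREG, HBEGF and TGFA reach 2.08 to 3.37 in MYC-ER cells and 0.38 to 0.76 in parental cells, and EPGN is at -1.99 and 0.19.

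The difference between the lines' changes was tested as a line by time interaction: how far the change in MYC-ER cells exceeded that in parental cells. It was called for 9 members at 8 h, 8 at 24 h and 6 at 48 h, against 55.2, 54.5 and 45.0% of all genes. At 8 h EREG, HBEGF, AREG, TGFA and ERRFI1 changed more upward in MYC-ER cells, by 2.77 (SE 0.23, adjusted p 1.01e-09), 2.61 (SE 0.14, adjusted p 1.32e-12), 1.71 (SE 0.12, adjusted p 9.44e-11), 1.41 (SE 0.09, adjusted p 6.46e-12) and 0.50 (SE 0.12, adjusted p 0.00135). EPGN and ERBB3 changed more downward, by -2.18 (adjusted p 4.03e-12) and -1.42 (adjusted p 6.89e-09). EREG was 2.41 without parental 0 h replicate 2. At 24 h EREG and TGFA had turned, to -0.86 (adjusted p 0.00327) and -0.91 (adjusted p 7.53e-09), and HBEGF did not pass the test (0.11, adjusted p 0.572). BTC did not pass at 8 h (0.64, adjusted p 0.0729) and did without MYC-ER 0 h replicate 1 or parental 0 h replicate 1 (0.82 and 0.81), without GC trends (0.81, adjusted p 0.0159) and with DESeq2 (0.67, adjusted p 0.0481). At 48 h EREG did not pass (-0.29, adjusted p 0.336), but read -0.65 (adjusted p 0.00015) without parental 0 h replicate 2 and 0.08 without GC trends. TGFA at 48 h (-0.18, adjusted p 0.0954) passed without parental 0 h replicate 2 or 48 h replicate 1 (-0.24 and -0.23), and ERBB2 (0.23, adjusted p 0.127) without parental 0 h replicate 2 (0.31) and with totals alone (0.33) or upper-quartile scaling (0.32). ERRFI1 at 48 h (0.11, adjusted p 0.487) passed without GC trends (0.28, adjusted p 0.0478) and read -0.02 without parental 0 h replicate 2.

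Because the lines started apart, their levels at the same time give another view. At 8 h 7 members differed, 2 higher in MYC-ER and 5 lower, against 48.6% of all genes (23.1% higher, 25.5% lower). EREG at 8 h overlapped between the lines, at 29 and 31.2 CPM (-0.11, SE 0.16, adjusted p 0.617), while HBEGF and AREG remained lower in MYC-ER cells, by -0.95 (adjusted p 4.97e-08) and -1.44 (adjusted p 8.26e-12). ERRFI1 was higher by 0.23 (adjusted p 0.0328), which was 0.11 (adjusted p 0.292) without MYC-ER 8 h replicate 3 and was also lost without parental 8 h replicates 1 or 2 (0.25 and 0.19) or with totals alone (0.15). At 24 h 8 members were lower in MYC-ER cells and none higher, against 49.4% of all genes (23.5% higher, 25.8% lower). EREG was 13.4-fold, HBEGF 11-fold, EPGN 4.61-fold, TGFA 3.94-fold, AREG 3.85-fold and ERRFI1 2.29-fold lower. EGFR (-0.21, adjusted p 0.0982) and BTC (-0.48, adjusted p 0.0619) did not pass the test. BTC did without MYC-ER 24 h replicate 2 (-0.64, adjusted p 0.0301).

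At 48 h 6 members differed between the lines, 1 higher and 5 lower, against 56.7% of all genes (27.3% higher, 29.4% lower). EREG remained 8.98-fold and HBEGF 5.27-fold lower in MYC-ER cells, with AREG, EPGN and TGFA 2.79-fold, 2.51-fold and 2.37-fold lower. ERRFI1 and EGFR no longer differed by the test (-0.16 and -0.08, adjusted p 0.124 and 0.52). ERBB2 was higher by 0.22 (adjusted p 0.0346), lost without any 1 of MYC-ER 48 h replicates 1, 2 and 3 or parental 48 h replicates 1 and 2 (0.15 to 0.23). That call was also lost without GC trends and with no filter on low counts, in 7 of 15 alternatives in all. ERBB3 read 0.22 (adjusted p 0.0531), and passed in 7 of 15 alternatives, among them the DESeq2 Wald test (0.22, adjusted p 0.0316), totals alone (0.36, adjusted p 0.0031), upper-quartile scaling (0.36, adjusted p 0.00175) and the fit without parental 48 h replicate 3 (0.26, adjusted p 0.0473).

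Across the 8 groups HBEGF had the widest range of means, 20-fold, followed by AREG (16.8-fold), EREG (14.1-fold) and EPGN (8.65-fold). EGFR (1.65-fold) and ERBB2 (1.78-fold) had the narrowest. For AREG all 4 parental groups ranked above all 4 MYC-ER groups, and no neighbours in the order overlapped. For EREG the MYC-ER 8 h group sat among the parental ones and overlapped parental 8 h and parental 0 h. In the order of HBEGF the parental 24 h, 0 h and 48 h and MYC-ER 8 h groups overlapped in sequence. In TGFA the MYC-ER 8 h group led without overlap.

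As a description over the 24 libraries, which include 8 groups and so are not independent, EREG, HBEGF and TGFA had Pearson correlations of log2 CPM of 0.96 (EREG with HBEGF), 0.94 (EREG with TGFA) and 0.92 (HBEGF with TGFA). AREG correlated at 0.81 with EREG and 0.87 with HBEGF, and EPGN at -0.02 with AREG and 0.36 with EREG. The 2 genes nearest to each member by the same measure were CD44 and TNS4 for EREG (0.991 and 0.990), IL4R and CPT1A for HBEGF (0.986 and 0.984), and KCTD10 and TSC22D1 for TGFA (0.989 and 0.988). They were LIMA1 and AMIGO2 for AREG (0.977 and 0.977), NPAS2 and MGST1 for EPGN (0.966 and 0.954), and GSAP and HMGCS1 for BTC (0.938 and 0.863). For the receptors and the inhibitor they were NBR1 and PDCD4 for ERBB3 (0.976 and 0.958), FZD6 and STRN for EGFR (0.951 and 0.932), PLCD3 and DTX2 for ERBB2 (0.945 and 0.934) and CDH1 and PHLDB2 for ERRFI1 (0.929 and 0.925).

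The remaining ligands and receptor of the family were EGF, NRG1, NRG2, NRG3, NRG4 and ERBB4, of which 4 were tested. NRG1, a ligand of ERBB3 and ERBB4, was also highest at 8 h in MYC-ER cells. It read 0.209, 0.130 and 0.181 CPM in MYC-ER cells at 0 h, 2.34, 2.31 and 2.94 CPM at 8 h, 1.87, 1.55 and 1.71 CPM at 24 h and 0.531, 0.680 and 0.489 CPM at 48 h. All later values exceeded those at 0 h, with log2 changes of 3.86 (SE 0.19, adjusted p 4.84e-14), 3.30 (adjusted p 7.31e-13) and 1.70 (adjusted p 9.98e-08). Parental cells held 1.70 ± 0.220 CPM (SD, n = 3) at 0 h, and NRG1 rose there by 0.76 at 8 h (adjusted p 0.00109). NRG4, a ligand of ERBB4, fell by 1.34 on the log2 scale at 8 h in MYC-ER cells (adjusted p 1.58e-08) and was 0.82 above 0 h at 24 h (adjusted p 1.37e-05). NRG2 read -1.26 (adjusted p 1.15e-05) at 24 h. The interaction was called for NRG1 at all 3 times (3.10, 2.49 and 1.51, adjusted p 3.38e-10, 1.09e-08 and 2.99e-05). At 24 h all 4 tested genes were called in MYC-ER cells, against 61.6% of all genes, with EGF among the 3 higher and NRG2 lower. EGF itself was at most 0.253 CPM in any group mean. NRG3 had 0 counts in all libraries, and ERBB4 had 8, 2 and 2 counts in the MYC-ER 24 h libraries and 0 in the others.

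Genes that act around these receptors were counted in 5 further lists, which with the one above hold 65 genes, 63 of them tested. In MYC-ER cells 47 of the 63 were called at 8 h (27 higher, 20 lower), 46 at 24 h (16 higher, 30 lower) and 33 at 48 h (10 higher, 23 lower). These are shares of 74.6, 73.0 and 52.4%, to be read against the backgrounds of 67.6, 61.6 and 44.1%. Those backgrounds include genes with few counts. Where at least 10 counts were required in every library, 12692, 11891 and 8736 of 16056 genes were called. No excess over all genes is therefore read from these shares. The median log2 change over the 63 genes was 0.11, -0.20 and -0.16. Of the 10 genes that process and release ligands, 5 rose and 3 fell at 8 h (80% called). ADAM12, a sheddase, went from 0.208 ± 0.0182 to 15.8 ± 0.588 CPM (log2 change 6.24, SE 0.19, adjusted p 2.4e-17). TIMP3, which inhibits ADAM17, fell from 320 ± 3.26 to 187 ± 8.08 CPM (adjusted p 1.57e-12). At 24 h RHBDF1, an iRhom that carries ADAM17 to the cell surface, was 3.08 ± 0.170 against 18.0 ± 0.424 CPM at 0 h (log2 change -2.55, adjusted p 5.36e-17), and its relative RHBDF2 was higher by 0.43 (adjusted p 5.05e-06), then 1.15 at 48 h (adjusted p 3.31e-12). RHBDF1 was still lower at 48 h (-1.05, adjusted p 2.44e-10).

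Among 13 adaptors and proximal enzymes all were called at 8 h, 6 higher and 7 lower, against the 67.6% of all genes. SHC1, an adaptor that binds activated receptors, rose from 417 ± 8.42 to 1199 ± 37.7 CPM (1.52, adjusted p 2.88e-16), and SOS2, an exchange factor of RAS, fell from 60.7 ± 2.12 to 23.7 ± 0.367 CPM (-1.36, adjusted p 2.01e-11). Of 15 genes of receptor downregulation 8 rose and 4 fell (80% called). The ubiquitin ligases CBLC and CBLB went opposite ways, by 2.45 (adjusted p 6.4e-16) and -1.80 (adjusted p 2.3e-13). In the RAS to ERK core 3 of 10 rose and 3 fell, and this share of 60% was below the 67.6% of all genes. MAP2K1, which encodes MEK1, rose from 60.6 ± 1.93 to 226 ± 3.14 CPM (1.90, adjusted p 1.56e-15), while MAPK3, which encodes ERK1, fell by 1.20 on the log2 scale (adjusted p 8.59e-12). In the PI3K to AKT core 4 of 11 rose and 2 fell, 54.5% and again below the background, with AKT1 at 0.86 (adjusted p 1.74e-11).

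At 24 h the same leading genes had smaller rises, with SHC1 at 0.63, CBLC at 1.90 and MAP2K1 at 0.71 (adjusted p 8.44e-10, 4.73e-14 and 2.15e-08). SOS2 (-1.46), CBLB (-1.03) and MAPK3 (-0.81) were still below 0 h (adjusted p 8.23e-12, 2.36e-09 and 6.79e-09). The PI3 kinase subunit genes PIK3R2 and PIK3CD read 0.67 and -1.58 (adjusted p 7.97e-08 and 1.3e-11). At 48 h CBLC (1.67, adjusted p 1.29e-12), PIK3R2 (0.54, adjusted p 4.3e-06) and MAPK3 (0.24, adjusted p 0.0148) were above 0 h. SOS2 (-0.71, adjusted p 1.35e-06), HRAS (-0.72, adjusted p 1.36e-06), PIK3R1 (-0.64, adjusted p 0.000121) and RNF41 (-0.38, adjusted p 2.86e-07), a ubiquitin ligase of ERBB3, were below it.

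The same lists differed between the lines at 0 h in 50 of 63 genes (31 higher and 19 lower in MYC-ER), 79.4% beside the 64.3% of all genes. Where at least 10 counts were required in every library, 12262 of 16056 genes were called, so no excess is read from this share. TIMP3 was 320 ± 3.26 CPM in MYC-ER and 64.1 ± 1.84 CPM in parental cells (2.32, adjusted p 3.66e-20). SHC1, MAP2K1, AKT1 and CBLC, which rose at 8 h, were lower in MYC-ER cells at 0 h, by -0.98, -0.72, -0.57 and -1.92 (adjusted p 5.42e-13, 1.42e-08, 2e-08 and 4.22e-14). CBLB, GAB1 and BRAF were higher by 1.54, 1.40 and 1.20 (adjusted p 3.94e-12, 3.21e-09 and 3.43e-09), and FRMD8, a partner of the iRhoms, was lower by -1.11 (adjusted p 6.2e-13). GAB1 and BRAF were uneven in the parental 0 h libraries (10.5 ± 2.81 and 16.2 ± 3.99 CPM), and no alternative fits are given for these genes. In parental cells 31 of the 63 were called at 8 h (22 higher, 9 lower), 45 at 24 h (37 higher, 8 lower) and 44 at 48 h (34 higher, 10 lower). These are 49.2, 71.4 and 69.8% beside 31.0, 42.9 and 40.5% of all genes. With that minimum of 10 counts, 7186, 9503 and 9123 of 16056 genes were called. When only the groups compared were fitted, 5 and 20 were called at 8 and 48 h, while 1452 of 19596 and 3274 of 19680 genes were called in all.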

How the data were processed

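RNA was sequenced as paired 150-base reads from poly(A)-selected, strand-specific libraries, 3 to a lane, per the labels' protocols; which libraries shared a lane is not given in the sources used here. The authors deposited 1 table of whole-number counts per gene, not normalised, for all 24 libraries. Trimmomatic 0.39, STAR, StringTie 2.1.3b and GRCh38 are named in the submitters' processing notes, without role or order. If the counts were derived from StringTie coverage, each is an estimate. The annotation release, strand setting and treatment of reads matching several genes are not given in the sources used here.

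Groups came from the labels, and symbols and positions from GENCODE 29 and symbol tables (60340 of 60668 rows matched). Genes passing edgeR's filterByExpr (22158) entered the fit after TMM scaling. The model, in edgeR 4.0.16 under R 4.3.3, gave each of the 8 groups a mean, with each gene's spread shared by all groups. Contrasts used the two-sided quasi-likelihood F test with Benjamini-Hochberg adjustment over all genes, threshold 0.05. All log2 changes are from this fit, and a standard error is the change over the square root of F. The script was tested on simulated data. CPM uses TMM-scaled totals, and lengths are of the longest transcript. Correlations use log2 CPM with a prior count of 2, and nearest genes are given without regard to function. Pathway genes were named by a rule: the largest rise and fall of each list among called genes with at least 10 CPM in the higher group and no overlap. Some genes this rule names are not reported here. The genes within 300 kb were described after the values had been seen. Members and lists were chosen with earlier results of these data known.

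Alternatives were other scalings, other filters, DESeq2 1.42.0, a fit of only the groups compared, removal of each library's GC trend (lowess span 0.3, 98% of tested genes with a value), the replicate number as a block, and leaving out each library. No sample was left out of the results as first given.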

Additional observations from a re-analysis of the deposited data

Results flagged for a closer look

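The change over time differed between the lines, by the test of the difference itself (edgeR's quasi-likelihood test of the line by time interaction, MYC-ER change minus parental change, adjusted over all genes), in 23 of 30 tests over the 10 genes and 3 times. Over all genes tested, 55.2, 54.5 and 45.0% were called by the same test at 8, 24 and 48 h, so such calls were common. For EGFR the log2 differences after 8, 24 and 48 h were -0.60, -0.67 and -0.54, and for ERBB3 -1.42, -1.26 and -0.66. ERBB2 passed the test at 8 and 24 h, at -0.55 and -0.56. AREG was at 1.71, 1.20 and 1.67 and EPGN at -2.18, -3.23 and -2.35, each with 1 sign at all 3 times. EREG was at 2.77 at 8 h and -0.86 at 24 h, and TGFA at 1.41 and -0.91, so both changed sign. HBEGF was at 2.61 at 8 h and 1.16 at 48 h. ERRFI1 was at 0.50 at 8 h and -0.92 at 24 h. BTC was at 1.02 at 48 h. In these 23 tests each alternative fit kept the sign and the call. All of them share the parental 0 h libraries, whose GC trends and replicate spread are given in the report, and the part of those libraries in the differences was not tested beyond leaving out each one and removing the GC trend.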

How the results depend on the processing

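Over 2430 alternative values of the members' changes, 2282 kept direction and side of the threshold, 71 lost the call, 48 gained it and 29 turned sign. Of 243 alternative counts of members called, 241 were within 1.5 times of the value reported. The exceptions came from fitting only the groups compared, which called 4 members (8 h) and 3 (48 h) in parental cells against 7 each. It also called 5 and 20 of the 63 pathway genes there, against 31 and 44, while all calls dropped from 6870 to 1452 and from 8978 to 3274. Leaving out 1 library gave 9 members at 8 h in MYC-ER cells in each of 6 fits. The sign changes were in values that had not passed the test, and their cause was not tested. With the GC trend removed they were ERBB2 in parental cells (0.13, 0.05 and 0.08 at 8, 24 and 48 h), between lines at 0 h (0.17, adjusted p 0.0376) and in the 48 h interaction (-0.03), EPGN in parental cells at 8 and 24 h (-0.01, and -0.18 with adjusted p 0.0273), ERBB3 in parental cells at 24 h (0.07) and EREG in the 48 h interaction (0.08). With library totals alone they were ERBB2 from 8 to 24 h in MYC-ER (0.06) and between lines at 0 h (0.03), ERBB3 in parental cells at 24 h (0.01), EPGN at 48 h (0.04) and EGFR between lines at 48 h (0.06). With upper-quartile scaling they were EGFR at 24 h in MYC-ER (-0.0007) and between lines at 48 h (0.06), and ERBB2 between lines at 0 h (0.04), which a minimum of 10 counts put at 0.0007. Leaving out 1 library gave both signs for EGFR at 24 h in MYC-ER (down to -0.02), for ERBB2 in parental cells at 8 h (-0.12 to 0.03) and between lines at 0 h (-0.09 to 0.06), for ERBB3 in parental cells at 24 h (-0.08 to 0.09), for EPGN in parental cells at 48 h (-0.07 to 0.12) and for ERRFI1 in the 48 h interaction (down to -0.02).

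With the replicate number as a block, 9 members were called in MYC-ER cells at 8 h against 10 without it, and 9 between lines at 24 h against 8; the other 13 counts were equal. The labels share only numbers between groups: of 84 same-numbered pairs none had deviations correlated above 0.1 (range -0.078 to 0.094), and 10 of 24 libraries correlated best with their own number.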
